A study of Rattus norvegicus with 6 samples.

Results

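The transport genes of the collecting duct were compared between the kidneys of diabetic rats given Shenqi Jiangtang Granule (SJG), an oral preparation of several herbs, and those of diabetic rats without it, on Affymetrix Rat Gene 2.0 ST arrays. Each group had 3 arrays. All animals were Sprague Dawley rats of 17 weeks by their labels, and streptozotocin, a toxin of pancreatic beta cells, had made both groups diabetic, so the comparison holds no healthy kidney. A high-fat diet is mentioned for this model in the abstract of the study but not in its methods. According to the study's text the SJG arrays belong to the higher of its doses and the diabetic group received saline, while the labels state neither. The tissue is kidney in the labels and kidney cortex in the methods. No label names the animal behind a replicate, so a p-value here reflects the spread between arrays, part of which may be technical. Each title carries a bracketed code that is not explained, with 1 number for all SJG arrays and another for all diabetic arrays, and a difference it may stand for cannot be told apart from SJG.

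The set holds 10 genes of the 18166 named genes measured, picked by gene symbol for their roles in the collecting duct, at a time when earlier results of these data were known. There are 7 genes of principal cells (Aqp2, Aqp3, Aqp4, Avpr2, Scnn1a, Scnn1b and Scnn1g) and 3 genes of intercalated cells (Slc26a4, Foxi1 and Slc4a9). Each of the 10 had 1 transcript cluster, the set of probes that reads 1 gene on this array. The deposited signals are on a log2 scale, and the gene's log2 fold change is the mean of the SJG arrays minus that of the diabetic arrays. In the following, "rose" and "fell" are used of genes with a limma p under 0.05 before adjustment and a fold change above 1.5, the thresholds that the study used.

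The collecting duct is the last part of the nephron and sets how much water, sodium and bicarbonate leave in the urine. In its principal cells vasopressin acts on the V2 receptor (Avpr2), cyclic AMP rises, and vesicles with the water channel aquaporin-2 fuse with the luminal membrane. Water then leaves on the blood side through aquaporin-3 and aquaporin-4. The same cells take up sodium through the epithelial sodium channel ENaC, which is built from an alpha, a beta and a gamma subunit and is under the control of aldosterone. Intercalated cells move acid and base. Their type B form secretes bicarbonate in exchange for chloride through pendrin (Slc26a4) and carries the bicarbonate transporter AE4 (Slc4a9) on the blood side, and the forkhead factor Foxi1 is required for their formation. Whole tissue mixes these cells with all others of the kidney, and fewer cells of a type cannot be told apart from less RNA per cell.

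The array medians lay between 4.68 and 4.88 in the SJG group and between 4.70 and 4.85 in the diabetic group. Every pair of arrays correlated at 0.9523 or more across transcript clusters. The lowest value was that of SJG replicate 2 with diabetic replicate 2. Among all genes 565 passed the thresholds, which is 3.11%, and these were 180 higher (0.991%) and 385 lower (2.12%) with SJG. The study, which names no test for its arrays in particular, reported fewer genes in each direction at these thresholds. After median centring of the arrays the split was 264 higher and 319 lower. After Benjamini-Hochberg adjustment 0 genes (0%) had a limma p under 0.05, with 1133 (6.24%) under 0.05 before adjustment and 2 after adjustment by the unmoderated test. Defining genes of the kidney were read at high or moderate levels. The proximal tubule endocytic receptor Lrp2 read 11.69 to 11.89 over the 6 arrays, the thick ascending limb protein gene Umod 11.44 to 11.96 and the podocyte gene Nphs1 6.43 to 6.91. Slc14a2, the urea transporter of the inner medulla, read 4.29 to 4.79.

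Of the 10 collecting duct genes, Slc26a4 rose in the SJG-treated rats and the other 9 did not pass the thresholds. Its increase was 1.73-fold. Their log2 fold changes lay between -0.33 and 0.28, with p of 0.169 or more. In 1 gene of the 10, again Slc26a4, the groups did not overlap, where 10.5% of all genes showed this. None of the 7 principal cell genes passed, and 1 of the 3 intercalated cell genes did. The share of 1 in 10 rests on a single gene and is not a result about the set. A 95% interval that stayed inside a 1.5-fold change in either direction was found for 6 of the 10 genes and for 47.5% of all genes.

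**Figure D1:**
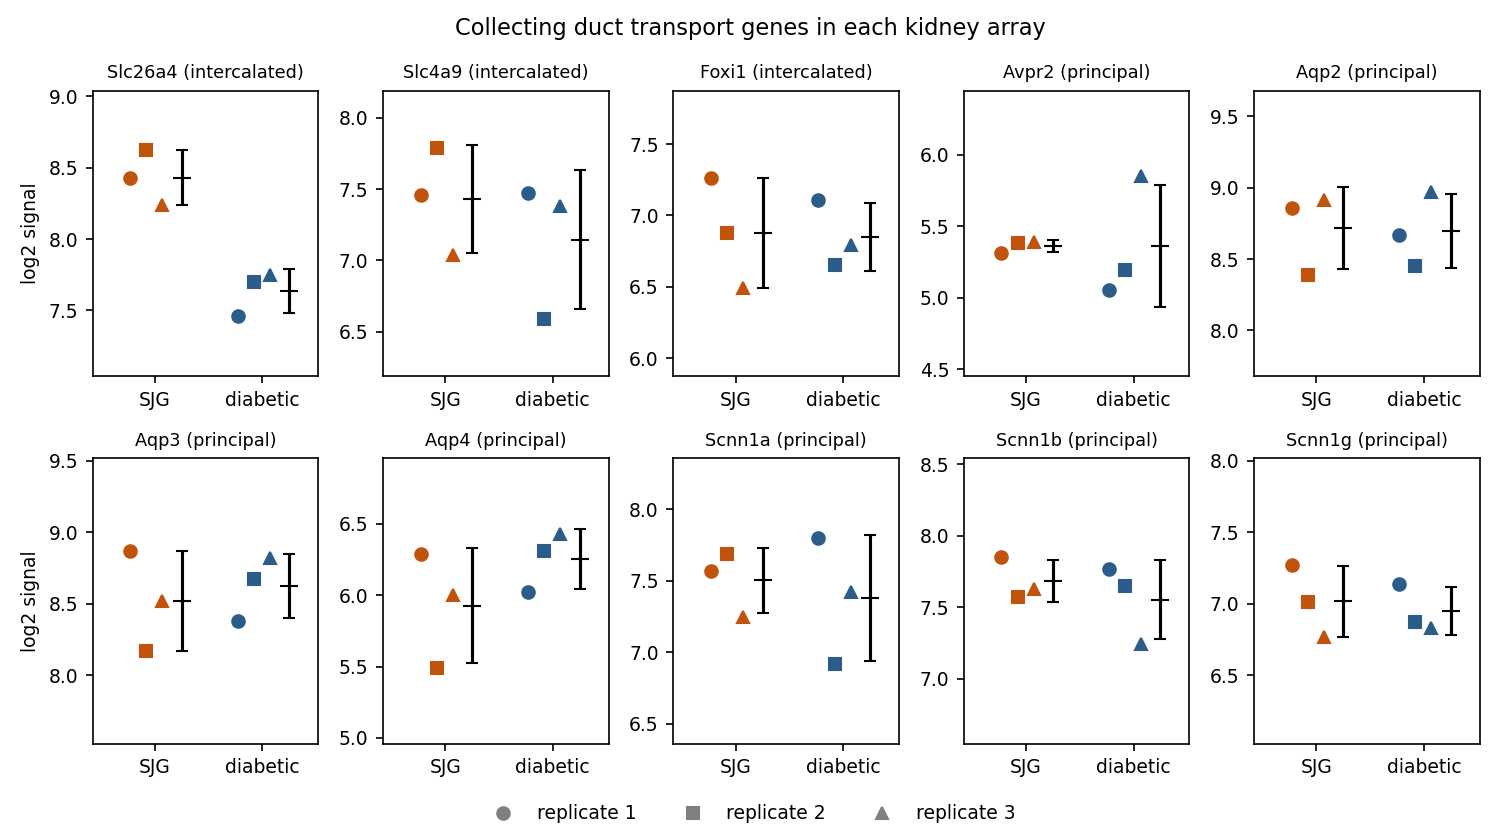
Log2 signal of the 10 collecting duct genes in each array, with SJG at the left and diabetic at the right of each panel. Each symbol is 1 array, the black marks give the mean and SD of 3 arrays, and every vertical axis spans the same number of log2 units. Only for Slc26a4 do all SJG arrays (8.24 to 8.62) lie above all diabetic arrays (7.46 to 7.75).

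Slc26a4 encodes pendrin, the chloride and bicarbonate exchanger on the luminal membrane of type B cells. Its log2 signal was 8.43, 8.62 and 8.24 in SJG replicates 1 to 3, against 7.46, 7.70 and 7.75 in diabetic replicates 1 to 3. The lowest SJG array stood clear of the highest diabetic array, so the groups did not overlap. The means were 8.43 ± 0.19 with SJG and 7.64 ± 0.15 in the diabetic rats (SD, n = 3 arrays each). The log2 fold change was 0.79 with a standard error of 0.179 and a 95% interval of 0.40 to 1.19. The limma p was 0.00102, the 26th smallest of the 18166 genes, and the adjusted p was 0.635. An exact two-sided permutation test over the 6 arrays gave p = 0.1, the smallest that 3 against 3 allows. By size it was the 59th of the 180 genes that rose. Slc26a4 passed the thresholds in each alternative run, 8 other settings of the fit and the removal of each array in turn. Its log2 fold changes there lay between 0.70 and 0.89. The adjusted p of these runs, from limma or in 1 setting from the unmoderated test, lay between 0.0903 and 1.

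The sequences before the starts of 3 genes are shown because these genes mark the pattern. They are Slc26a4, which rose, Slc4a9, the other type B carrier, and Aqp2 of the principal cells, which did not pass. They are the 250 bases before the annotated start, from RefSeq on the rat build GRCr8, where 9 of the 10 genes had an entry. Capitals mark matches, on either strand, to 4 short motifs, the forkhead core TAAACA, the steroid receptor half-site TGTTCT, the GATA motif GATAA and the cyclic AMP response element TGACGTCA. The motifs do not overlap in these windows.
Slc26a4 (chr6:53873217-53873466, minus strand): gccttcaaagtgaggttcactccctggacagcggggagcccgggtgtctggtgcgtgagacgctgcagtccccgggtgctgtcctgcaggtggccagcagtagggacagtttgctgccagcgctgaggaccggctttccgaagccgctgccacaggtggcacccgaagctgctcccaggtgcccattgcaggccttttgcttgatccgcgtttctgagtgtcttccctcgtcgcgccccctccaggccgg
Slc4a9 (chr18:28402543-28402792, plus strand): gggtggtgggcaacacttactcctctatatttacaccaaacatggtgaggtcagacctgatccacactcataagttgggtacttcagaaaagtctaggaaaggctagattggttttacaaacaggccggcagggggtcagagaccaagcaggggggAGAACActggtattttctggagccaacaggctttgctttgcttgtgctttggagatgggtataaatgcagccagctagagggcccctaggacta
Aqp2 (chr7:132590036-132590285, plus strand): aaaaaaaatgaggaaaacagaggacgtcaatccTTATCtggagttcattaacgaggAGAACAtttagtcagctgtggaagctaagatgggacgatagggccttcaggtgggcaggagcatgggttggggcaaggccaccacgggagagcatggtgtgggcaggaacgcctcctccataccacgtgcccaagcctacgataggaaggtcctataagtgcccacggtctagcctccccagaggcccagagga
The window of Slc26a4 held 0 matches to these motifs, that of Slc4a9 held 1 and that of Aqp2 held 2. Among 33469 promoter windows of the same length in the table, the forkhead core was present in 12.1%, the half-site in 17.5%, the GATA motif in 23.5% and the cyclic AMP element in 1.59%. Of the 9 genes with a window, the forkhead core was present in Aqp3 and Avpr2, the half-site in Aqp2, Avpr2 and Slc4a9, and the GATA motif in Aqp2 and Avpr2. A match describes the letters only.

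The other 2 intercalated cell genes did not pass. Slc4a9, the anion exchanger AE4 of type B cells, had log2 signals of 7.46, 7.79 and 7.04 in SJG replicates 1 to 3, against 7.47, 6.59 and 7.38 in diabetic replicates 1 to 3. Diabetic replicate 2 was low and the remaining arrays of both groups overlapped. The means were 7.43 ± 0.37 with SJG and 7.15 ± 0.48 in the diabetic rats (SD, n = 3 arrays each), a log2 fold change of 0.28 with a 95% interval of -0.30 to 0.87 (limma adjusted p = 0.846). This interval holds both no change and the fold of Slc26a4. Foxi1, the transcription factor of intercalated cells, read 7.26, 6.88 and 6.49 in the SJG arrays, against 7.11, 6.65 and 6.79 in the diabetic arrays. The diabetic arrays lay inside the SJG range, and the log2 fold change was 0.03 with a 95% interval of -0.46 to 0.52 (limma adjusted p = 0.986).

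Among the principal cell genes, the receptor comes first in the pathway. Avpr2, the vasopressin V2 receptor, had log2 signals of 5.31, 5.38 and 5.39 with SJG, against 5.05, 5.19 and 5.85 in the diabetic arrays. The SJG arrays lay close together inside the wider diabetic range, and both means were 5.36 (95% interval of the difference -0.48 to 0.48, limma adjusted p = 1). It was the 1 gene of the 10 whose mean signal was below the median of all genes, 5.596, and the arrays carry no detection call. Aqp2, the water channel that vasopressin moves to the luminal membrane, read 8.86, 8.39 and 8.91 in the SJG arrays, against 8.67, 8.45 and 8.97 in the diabetic arrays. The groups covered nearly the same range. The means were 8.72 ± 0.28 with SJG and 8.70 ± 0.26 in the diabetic rats (SD, n = 3 arrays each), with a log2 fold change of 0.03 and a 95% interval of -0.43 to 0.48 (limma adjusted p = 0.986).

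The aquaporins of the blood side did not pass either. Aqp3, a channel for water and glycerol, read 8.87, 8.17 and 8.52 with SJG, against 8.38, 8.67 and 8.82 in the diabetic arrays. The SJG arrays spanned the diabetic ones, and the log2 fold change was -0.11 with a 95% interval of -0.58 to 0.37. Aqp4, a water channel that the kidney shares with the brain, read 6.29, 5.49 and 6.0 with SJG, against 6.02, 6.31 and 6.43 in the diabetic arrays. SJG replicate 2 was the lowest array and SJG replicate 1 lay within the diabetic range. The mean was 5.93 ± 0.41 with SJG and 6.26 ± 0.21 in the diabetic rats (SD, n = 3 arrays each). Aqp4 had the lowest log2 fold change of the 10 genes, -0.33 with a 95% interval of -0.82 to 0.16 (limma adjusted p = 0.801). A 1.5-fold decrease of Aqp4 therefore lies inside the interval. Without SJG replicate 2 the difference was -0.11.

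The 3 subunits of ENaC gave similar pictures. Scnn1a, the alpha subunit, read 7.57, 7.69 and 7.25 with SJG, against 7.80, 6.92 and 7.42 in the diabetic arrays. Its highest and its lowest value were both diabetic, and the log2 fold change was 0.12 with a 95% interval of -0.39 to 0.64. Scnn1b, the beta subunit, read 7.85, 7.57 and 7.63 with SJG, against 7.77, 7.65 and 7.24 in the diabetic arrays. Diabetic replicate 3 was the low one, and the log2 fold change was 0.13 with a 95% interval of -0.29 to 0.55. Scnn1g, the gamma subunit, read 7.27, 7.01 and 6.77 with SJG, against 7.14, 6.87 and 6.83 in the diabetic arrays. The groups overlapped throughout and the log2 fold change was 0.07 with a 95% interval of -0.35 to 0.49. The limma adjusted p of the subunits lay between 0.905 and 0.951.

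**Figure D2:**
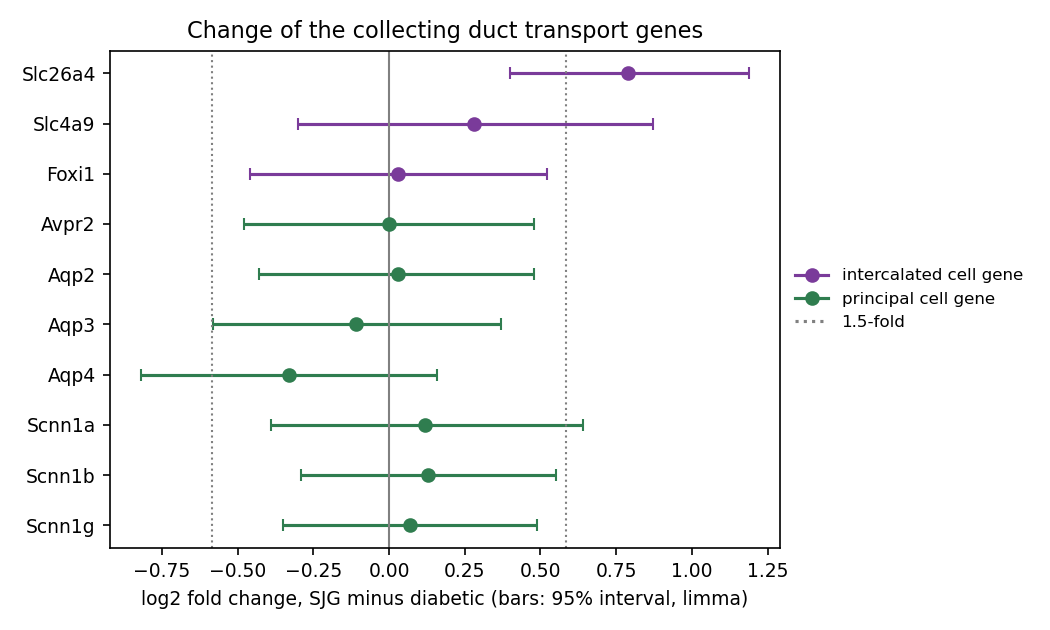
Log2 fold change (SJG minus diabetic) of the 10 genes with the 95% interval from limma, intercalated cell genes in purple and principal cell genes in green. The dotted lines mark a 1.5-fold change. The interval of Slc26a4 runs from 0.40 to 1.19, and those of the other 9 genes include 0.

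That Slc26a4 passed and the others did not is no test of whether their changes differ. As a description, the log2 signal of Slc26a4 minus that of each of the 9 other genes was taken within each array. Slc26a4 was set against the others after it was seen to have the largest change of the 10 and the only groups without overlap. The direction of these shifts follows from that choice, and so does much of their lack of overlap. The 9 differences also share the same Slc26a4 values, so they are not separate observations and no test is given. The shift between the groups was 0.51 to 1.12. Against Aqp2 it was 0.77, with values of -0.43, 0.23 and -0.67 in the SJG arrays and -1.20, -0.74 and -1.23 in the diabetic arrays. Against Foxi1 and Aqp4 it was 0.77 and 1.12. Against Slc4a9 it was 0.51, and the groups overlapped, with diabetic replicate 2, at 1.11, above 2 of the SJG arrays.

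**Figure D3:**
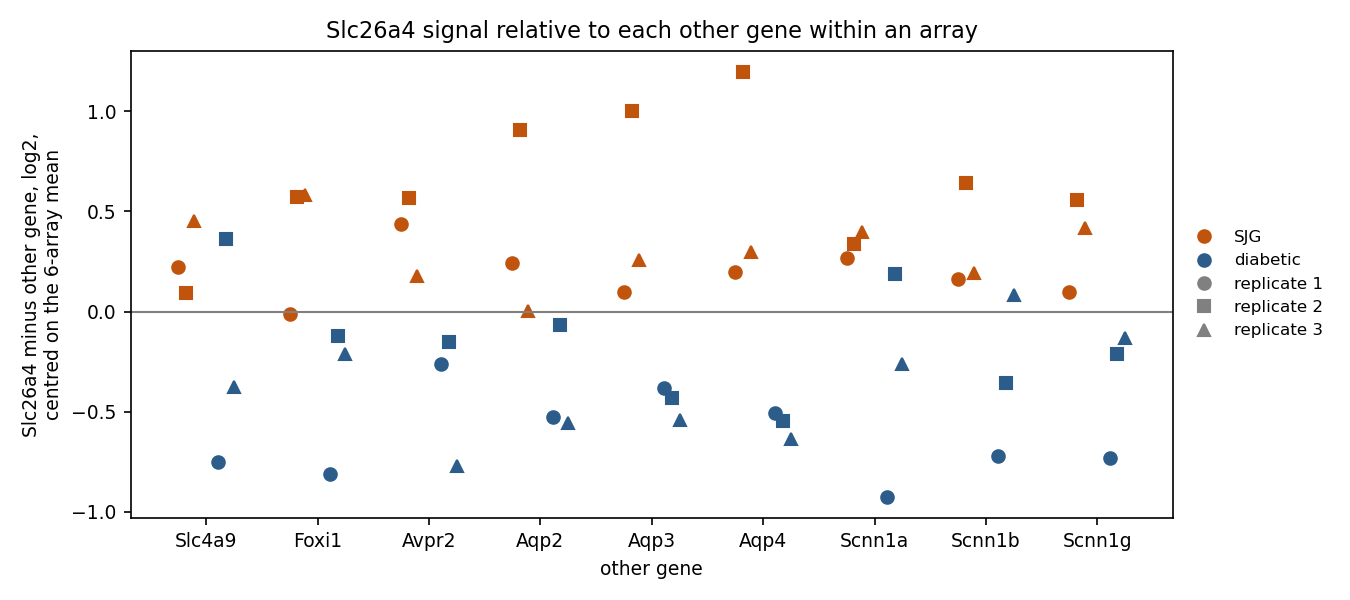
Log2 signal of Slc26a4 minus that of each other gene within the same array, centred on the mean of the 6 arrays, with SJG left of diabetic for each gene. For 8 of the 9 genes all SJG arrays lie above all diabetic arrays, and for Slc4a9 diabetic replicate 2 lies among the SJG arrays. All 9 comparisons share the same 6 values of Slc26a4, which was chosen for its separation, so this count is not 9 separate observations.

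Beyond the set, 24 other genes listed for intercalated cells were measured, and 1 of them rose, 1 fell and 22 stayed short of the thresholds. The list's median log2 fold change was 0.10, against 0.00 over all genes. No gene of this or the following lists had a limma adjusted p under 0.635. Over all genes 0.991% rose and 2.12% fell, the shares to set beside the counts of these lists. Slc8a1, a sodium-calcium exchanger, rose by 0.62 (standard error 0.258). It is in the list of the distal convoluted tubule as well, so it does not mark intercalated cells alone. Its signals were 8.10, 7.73 and 7.30 with SJG, against 6.61, 7.20 and 7.44 in the diabetic arrays, so the groups overlapped, and it did not pass when SJG replicate 1, SJG replicate 2 or diabetic replicate 1 was left out. Parm1, which encodes a mucin-like membrane protein, fell. It read 6.74, 6.66 and 6.91 with SJG, against 7.75, 7.80 and 7.29 in the diabetic arrays, without overlap, which is -0.84 on the log2 scale (standard error 0.19). Of the 24 genes, 5 had a limma p under 0.05 before adjustment, where 6.24% of all genes had one.

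The remaining 3 of these 5 missed the fold threshold and were picked out after their values were seen. Hepacam2, a marker of intercalated cells, read 7.47, 7.04 and 6.77 with SJG, against 6.39, 6.70 and 6.67 in the diabetic arrays (log2 fold change 0.51, standard error 0.209). Atp6v1g3, a subunit of the proton pump, read 7.99, 7.94 and 8.15 with SJG, against 7.27, 7.60 and 7.80 in the diabetic arrays (log2 fold change 0.47, standard error 0.187). Insrr, which encodes the insulin receptor-related receptor, an alkali sensor of type B cells, read 5.94, 6.06 and 5.37 with SJG, against 5.42, 5.14 and 5.37 in the diabetic arrays (log2 fold change 0.48, standard error 0.21). Hepacam2 and Atp6v1g3 did not overlap between groups and Insrr did. The mean signal of Insrr over the arrays was below the median of all genes. Hepacam2 passed with quantile normalization, at 0.59. Without SJG replicate 3 Hepacam2 and Insrr passed, and without diabetic replicate 3 Atp6v1g3 passed. Other omissions weakened them. With 1 array left out the limma p lay between 0.0142 and 0.156 for Hepacam2 and between 0.0125 and 0.113 for Atp6v1g3. For Insrr it lay between 0.00751 and 0.155. Over the 24 genes 16 had a log2 fold change above 0, where the median over all genes was 0.00. Of those below 0, Car15 (-0.24), Kit (-0.21), Dmrt2 (-0.16) and Car12 (-0.15) were the lowest that did not pass. The mean level of the 24 was 7.52 to 7.80 in the SJG arrays and 7.54 to 7.58 in the diabetic arrays, with overlap. Genes of acid secretion that did not pass, also picked after their values were seen, lay on both sides of 0, with the anion exchanger gene Slc4a1, which red cells also carry, and the water channel gene Aqp6 at -0.09 each, the chloride carrier gene Slc26a7 and the proton pump genes Atp6v1b1 and Atp6v0a4 at 0.16 each, the ammonia channel gene Rhcg at 0.20 and the proton pump gene Atp6v0d2 at 0.25.

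Among 14 other genes of principal cells 1 fell, and the median was -0.05. Fxyd4, a regulator of the sodium pump in the collecting duct, read 6.79, 6.67 and 6.64 with SJG, against 6.93, 6.99 and 8.14 in the diabetic arrays. The groups did not overlap, but diabetic replicate 3 stood far above the rest. The log2 fold change was -0.65 (standard error 0.286), and -0.26 without that array. Fxyd4 no longer passed when diabetic replicate 3 or any single SJG array was left out, nor with quantile normalization (-0.58) or median centring (-0.60). Calb1, the calcium-binding protein of the connecting and distal convoluted tubule, had 10.75, 10.21 and 10.12 with SJG, against 9.37, 9.36 and 10.49 in the diabetic arrays, a log2 fold change of 0.62 that did not pass (standard error 0.301). It passed without diabetic replicate 3, at 1.0, and with median centring, at 0.67. The lineage factors Gata2 and Gata3 had log2 fold changes of -0.10 each.

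Of 27 genes of vasopressin signalling and of aquaporin-2 trafficking, none passed, and the median was -0.04. The smallest p was that of Lyst, a regulator of lysosomal trafficking, which had groups without overlap and a log2 fold change of -0.52 (standard error 0.229). It missed the fold threshold and passed without SJG replicate 1, diabetic replicate 1 or diabetic replicate 3, and with array weights, at -0.59. With 1 array left out the limma p of Lyst lay between 0.0222 and 0.205. Prkar2a, a regulatory subunit of protein kinase A, had 0.37 (standard error 0.188). The adenylate cyclase gene Adcy6 and the catalytic subunit gene Prkaca had log2 fold changes of -0.01 and 0.02.

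Of 25 genes of mineralocorticoid and ENaC control, 3 fell, where 2.12% of all genes fell, none rose and 22 did not pass. The median was -0.08. The 3 that fell were Fxyd4, shared with the principal cell list, Sgk1 and Per1. Sgk1, the kinase that keeps ENaC at the membrane, read 10.61, 9.72 and 10.01 with SJG, against 10.63, 11.30 and 10.75 in the diabetic arrays. SJG replicate 1 all but reached the lowest diabetic array, and the log2 fold change was -0.78 (standard error 0.257). Per1, a clock gene that also acts on the ENaC alpha subunit, read 7.30, 6.71 and 6.11 with SJG, against 8.04, 7.87 and 7.21 in the diabetic arrays, with overlap and a log2 fold change of -1.0 (standard error 0.301). Sgk1 did not pass without SJG replicate 2 or without diabetic replicate 2, while Per1 passed without each single array. The mineralocorticoid receptor gene Nr3c2, the glucocorticoid-inactivating enzyme gene Hsd11b2 and the ubiquitin ligase gene Nedd4l had log2 fold changes of 0.06, -0.00 and -0.41, and none of them passed.

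Of the 9 other aquaporins, none passed, and the median was 0.06. Aqp11, an aquaporin of intracellular membranes, was nearest with 8.20, 7.75 and 7.86 in the SJG arrays, against 7.59, 7.11 and 7.59 in the diabetic arrays, which is 0.50 on the log2 scale (standard error 0.201). It missed the fold threshold and passed without SJG replicate 2. With 1 array left out the limma p of Aqp11 lay between 0.0247 and 0.123. Aqp7, the glycerol channel of the proximal tubule, had 0.27 (standard error 0.239). The SLC26 and SLC4 families had 19 other measured carriers, of which 1 fell, and their median was 0.04. The one that fell was Slc4a7, a sodium-bicarbonate cotransporter, at -0.65 (standard error 0.261), and it was not past the thresholds without SJG replicate 2 or diabetic replicate 2. Slc4a11, a membrane carrier of the same family, had -0.54 (standard error 0.228) and passed without SJG replicate 1 or SJG replicate 3. With 1 array left out the limma p of Slc4a11 lay between 0.0151 and 0.174. Apart from Slc26a4, the members of the SLC26 family lay between -0.39 for Slc26a8 and 0.25 for Slc26a9.

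Because the collecting duct runs through cortex and medulla, genes of the medulla and of the response to high osmolality were read in the same arrays. Of 11 measured, 3 fell, where 2.12% of all genes fell, none rose and 8 did not pass, with a median of -0.30. Nfat5, the factor that responds to high osmolality, read 7.85, 7.26 and 7.54 with SJG, against 8.35, 8.66 and 7.94 in the diabetic arrays, without overlap (log2 fold change -0.77, standard error 0.226). Sctr, the secretin receptor gene, had -0.95 (standard error 0.317), and S100a4, a calcium-binding protein gene, -0.76 (standard error 0.242), which did not pass without diabetic replicate 2. Both Sctr and S100a4 had a mean signal over the arrays below the median of all genes, 5.596. The Nfat5 target genes Akr1b1 (aldose reductase) and Slc5a3 (the inositol carrier) did not pass, at -0.33 and 0.37.

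Markers of other cells were read in the same arrays, and the mean level of each list overlapped between the groups. Of 7 macrophage markers, 3 fell (Cd68, Csf1r and Adgre1), where 2.12% of all genes fell, none rose and all 7 had a log2 fold change below 0, with a median of -0.65. Without diabetic replicate 2 none of the 3 passed, nor without SJG replicate 2. The mean log2 level of the 7 was 5.67 to 5.78 in the SJG arrays and 5.71 to 6.86 in the diabetic arrays. Diabetic replicate 3, at 5.71, was the low one of the diabetic arrays. The part of these cells in the values of Slc26a4 and of the other genes was not tested. Of 6 genes of the distal convoluted tubule, which borders the segments with pendrin, Slc8a1 rose and 5 did not pass, with a median of 0.27 and mean levels of 7.46 to 7.90 in the SJG arrays and 7.19 to 7.61 in the diabetic arrays. Of 6 thick ascending limb genes, 1 fell, Ptger3, at -0.64 (standard error 0.239), which did not pass without SJG replicate 2, diabetic replicate 1 or diabetic replicate 2. Of 10 proximal tubule genes, 1 rose, Slc22a2, at 0.62 (standard error 0.25), which passed only with SJG replicates 1 and 2 and diabetic replicates 1 and 2 all present. Neither 6 urothelial nor 3 podocyte genes held one that passed.

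**Figure D4:**
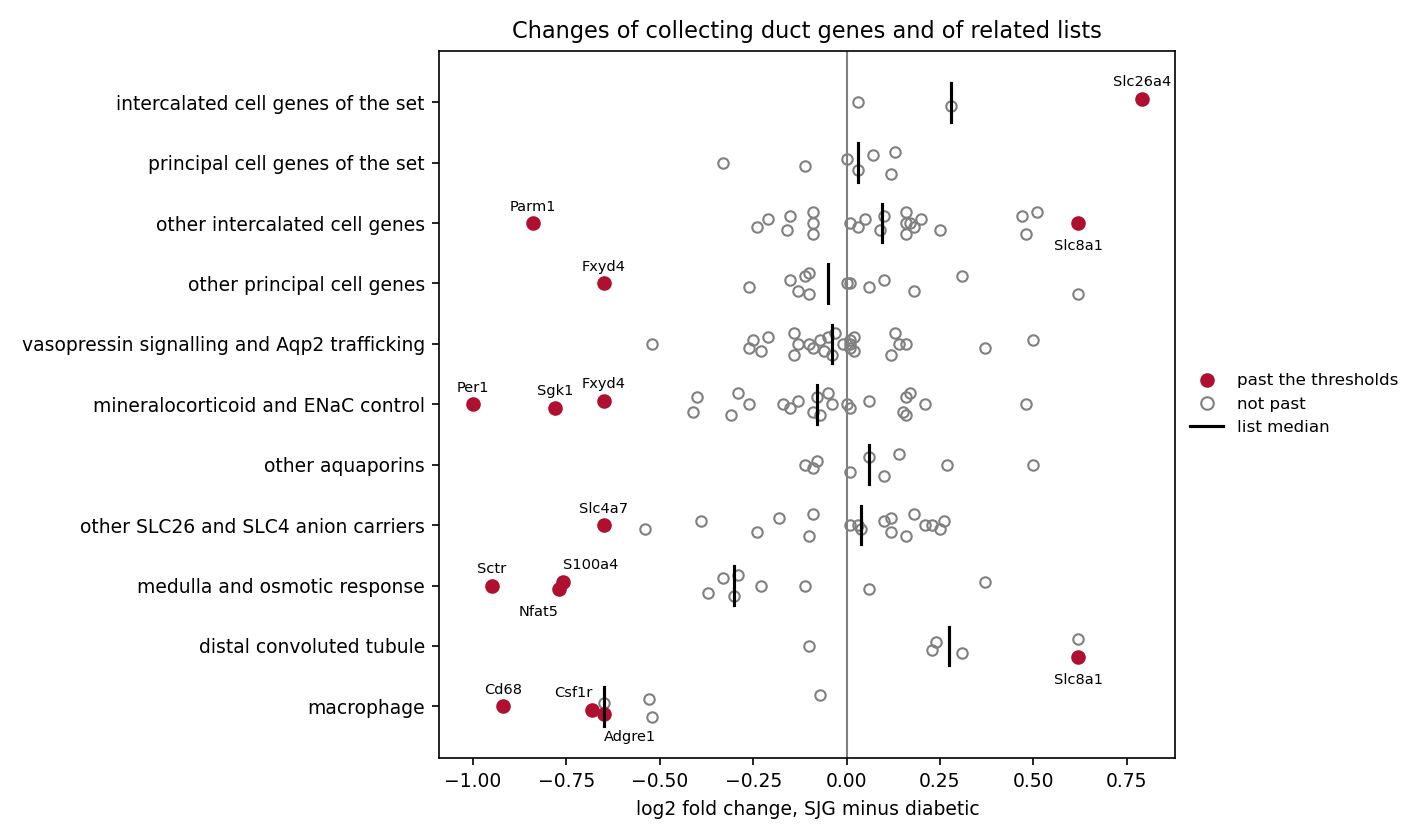
Log2 fold change (SJG minus diabetic) of the collecting duct genes and of the genes of related lists. Each circle is 1 gene, filled where it passed the thresholds and named there, and the black bar is the median of the list. Slc26a4 is the rightmost gene at 0.79, the medians of the principal cell genes (0.03) and of vasopressin signalling (-0.04) lie near 0, and that of the macrophage markers is -0.65.

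The genes whose values followed Slc26a4 most closely over the 6 arrays, among 9022 named genes above the median signal, were Nkd2, Bcl2l2, Slc7a12, Pxylp1 and Cgnl1, with Pearson correlations between 0.962 and 0.980. Nkd2 read 6.84, 7.09 and 6.64 with SJG, against 6.04, 6.34 and 6.43 in the diabetic arrays, and Slc7a12, an amino acid carrier gene, 8.72, 8.85 and 8.06, against 6.43, 7.24 and 7.61. For Aqp2 they were Amacr, Clta, Lman2l, Fance and Pex6, with correlations between 0.965 and 0.981. The log2 fold changes lay between 0.22 and 1.45 for the Slc26a4-like genes and between -0.07 and 0.07 for the Aqp2-like genes. Genes chosen by correlation share the group difference of the gene they follow, so these ranges are no separate result. These correlations are descriptions over 6 points that share their arrays.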

How the data were processed

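Kidney RNA was hybridised to 6 Affymetrix Rat Gene 2.0 ST arrays. The authors deposited 1 log-scale signal per transcript cluster and array, read here as log2 from its range of 0.254 to 13.699. The sources used here do not name the software, background correction or normalization, and nothing was normalized further. Arrays carry no read depth, so their number limits the precision.

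Of 36685 transcript clusters, 18511 had 1 gene, 575 several and 17599 none. Symbols were updated by gene number against GRCr8 (18394 matched), and for 291 genes with several clusters the brightest was used, which left 18166. SJG minus diabetic was fitted in R 4.3.3 with limma 3.58.1 (lmFit and eBayes, prior degrees of freedom 6.94, no covariates), adjusted by Benjamini-Hochberg over all genes and tested on simulated data.

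The genes of the set and the lists were chosen with earlier results of these data known. Named genes are all 10 of the set, up to 4 members per list past the thresholds (or those with the smallest p, up to 2), and the 5 genes most correlated with Slc26a4 and with Aqp2. Hepacam2, Atp6v1g3, Insrr and genes given for background were picked after their values were seen. Some genes of the lists were not analysed here. The alternatives were an unmoderated test per gene, eBayes with trend and robust variance, restriction to genes above the median signal, quantile normalization, centring on the median, weights per array, cluster means per gene, a replicate block, a 1.2-fold threshold and the omission of single arrays.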

Additional observations from a re-analysis of the deposited data

How the results depend on the processing

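Slc26a4 was the 1 gene of the set past the thresholds in the main comparison and in every alternative run. The 9 others passed in none. The counts over all genes moved more. The genes that rose numbered 180, against 76 with the unmoderated test, 90 among the genes above the median signal, 479 at a fold change of 1.2 and 170 to 435 when 1 array was left out. Those that fell numbered 385, against 77, 236, 654 and 223 to 1014 under the same settings. The run above the median signal tested only the brighter genes, so its lower counts have a smaller base and are not by themselves a lower share. After adjustment 0 genes passed, 2 with the unmoderated test and 0 to 166 when 1 array was left out, the highest without diabetic replicate 3. Several genes near 0 changed sign. Avpr2 was at 0.04 with quantile normalization, 0.05 with median centring and 0.04 with array weights, under which Scnn1a was at -0.01, Scnn1g at -0.03, Foxi1 at -0.13 and Podxl at -0.02. With 1 array left out, the range was -0.10 to 0.19 for Aqp2, -0.28 to 0.07 for Aqp3, -0.16 to 0.24 for Avpr2, -0.10 to 0.33 for Scnn1a, -0.03 to 0.23 for Scnn1b, -0.06 to 0.20 for Scnn1g, -0.17 to 0.22 for Foxi1 and -0.02 to 0.65 for Slc5a2. The cause was not tested. With the unmoderated test Per1, Sgk1, Fxyd4, Slc4a7, Sctr, S100a4, Slc8a1, Slc22a2, Ptger3, Cd68, Csf1r and Adgre1 no longer passed, while Slc26a4, Parm1 and Nfat5 did. Calls also ended with quantile normalization for Fxyd4 (-0.58), Csf1r (-0.61) and Adgre1 (-0.60), with median centring for Fxyd4 (-0.60), and with array weights for Adgre1 (-0.48), Slc8a1 (0.52), Slc22a2 (0.54) and Slc4a7 (-0.55). Calls were gained with array weights for Lyst (-0.59) and Cldn10 (0.59), with quantile normalization for Hepacam2 (0.59) and with median centring for Calb1 (0.67).

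Deviations of same-numbered arrays of the 2 groups showed no positive correlation (-0.024, -0.29 and -0.001). Those of the other pairs lay between -0.255 and 0.288. By the letter of the bracketed code, SJG replicate 1 shares C with diabetic replicate 1 (-0.024), and SJG replicate 3 shares E with diabetic replicate 2 (0.04). Taken from means of 3 arrays, such deviations limit one another, so these values cannot exclude a pairing. No label states one, and the arrays were treated as unpaired. With the replicate number as a block, Slc26a4 passed at a log2 fold change of 0.79. The block counts were 191 genes higher and 443 lower, with 0 past an adjusted p of 0.05.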
